A study of Mus musculus with 45 samples.

Results

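Arrdc4, Txnip and the other mammalian alpha-arrestin genes Arrdc1, Arrdc2 and Arrdc3 were followed in cultured mouse forelimbs together with Mlxip and Mlxipl, which encode the glucose-sensing transcription factors MondoA and ChREBP. These 7 genes were taken by name from the 34994 genes of the deposited count tables, and the set was drawn up because Arrdc4 was lower at 50 µM of bisphenol S (BPS), one of the replacements for bisphenol A in consumer products. The level of Arrdc4 at 50 µM is therefore given as a description, with no test. Forelimbs of gestation day 13 CD1 mouse embryos, both sexes together, were cultured with the vehicle dimethyl sulfoxide (DMSO), 10 µM BPS or 50 µM BPS for 3, 24 or 48 h. Each of the 9 groups had 5 bulk poly-A RNA libraries of 15.2 to 23.1 M counted reads. The limbs were pooled before culture, and whether the 5 libraries of a group are independent cultures is not stated in the labels. The tests therefore compare differences with the spread among libraries, and part of that spread may be technical. The strain label reads CD2 to CD6 on the 5 libraries of 50 µM at 48 h and CD1 on the other 40, while the design text names CD1 only. If these labels are right, strain and treatment cannot be told apart in that group. Limb mesenchyme and cartilage markers were present in every group, with a summed level between 4340 and 15100 CPM (read counts scaled to the size of each library) in single libraries and 0 of 10 markers at 0 in all libraries.

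Alpha-arrestins are adaptor proteins that bring ubiquitin ligases of the NEDD4 family to membrane proteins, which can then be taken off the cell surface. Txnip, the best known of them, binds thioredoxin and lowers glucose uptake by acting on glucose transporters. Its gene and Arrdc4 are classic targets of MondoA and ChREBP, which pair with Mlx, are activated when glucose metabolites rise, and bind a carbohydrate response element made of a pair of E-box-like motifs 5 bases apart.

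The bases before the start sites of Arrdc4 and Txnip are shown because these 2 genes moved together in the data below. The sequences are those of RefSeq on build GRCm38.p6, the assembly also called mm10, read on the strand of each gene. All 7 genes and Mlx matched an entry. Arrdc4 (ENSMUSG00000042659, protein coding, minus strand, chr7:68736995-68749241) is given from chr7:68749242-68749488, the 247 bases upstream of the annotated gene. Txnip (ENSMUSG00000038393, protein coding, plus strand, chr3:96557957-96561883) is given from chr3:96557707-96557956. Capitals mark CCAAT on either strand (ATTGG on the strand shown), an exact CACGTG, and a pair of CACGTG-like motifs 5 bases apart with at most 2 mismatches in all.
Arrdc4: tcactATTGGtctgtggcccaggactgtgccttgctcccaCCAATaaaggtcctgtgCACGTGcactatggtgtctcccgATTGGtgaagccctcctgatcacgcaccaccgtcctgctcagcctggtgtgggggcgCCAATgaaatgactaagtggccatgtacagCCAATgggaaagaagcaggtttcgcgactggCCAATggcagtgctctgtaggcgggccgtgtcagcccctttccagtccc
Txnip: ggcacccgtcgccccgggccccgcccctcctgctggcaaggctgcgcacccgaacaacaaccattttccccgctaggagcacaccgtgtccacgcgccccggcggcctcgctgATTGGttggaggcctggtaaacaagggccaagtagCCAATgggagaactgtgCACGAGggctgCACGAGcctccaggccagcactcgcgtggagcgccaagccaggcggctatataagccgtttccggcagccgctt

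The Txnip window held such a pair, CACGAG, 5 bases and CACGAG again, from 85 to 69 bases before the RefSeq start, with 1 mismatch in each motif. A pair with at most 2 mismatches was found in 0.779% of 32851 mouse promoter windows of 250 bases. The Arrdc4 window held 1 exact CACGTG, from 193 to 188 bases before its start, and its best pair had 3 mismatches, a class that 7.02% of windows reach. It also held 6 CCAAT motifs over both strands, which 0.0578% of windows reach, against 2 for Txnip, a number that 10.1% of windows reach. None of the other members had a pair with fewer than 3 mismatches in any of their windows. Mlxipl and Mlx had 1 exact CACGTG each, a motif in 6.02% of windows, and Arrdc1, Arrdc2, Arrdc3 and Mlxip had 0. A match is a description of these letters and not of binding.

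Per kilobase of gene length, as the deposited tables give it, Txnip was the most abundant member at a mean of 52.6 CPM per kb (range of the 45 libraries 35.3 to 75.1). Arrdc3 followed at 26.4 (15.2 to 45.7), then Mlx, the partner of both glucose sensors, at 13.2, Arrdc4 at 10.8 (6.57 to 13.9) and Mlxip at 9.25 (6.94 to 11). The ranges of Arrdc4 and Mlxip overlapped. Arrdc1 stood at 5.28 and Arrdc2 at 3.75 CPM per kb, also with overlapping ranges, and Mlxipl was lowest at 0.749 (0.394 to 1.16). In per-kb terms the transcript of MondoA was thus above that of ChREBP in every library. The remaining Arrdc gene, Arrdc5, had 5 reads in all 45 libraries together and was not analysed further.

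The first comparison asked how these genes behave in the vehicle as limbs differentiate in culture. Arrdc3 and Arrdc4 fell and Txnip rose. CPM values in these results, those above included, are scaled by the trimmed mean of M values (TMM). A call is an adjusted p below 0.05 in the quasi-likelihood test of edgeR with Benjamini-Hochberg adjustment over all genes tested. Arrdc3, an alpha-arrestin known for its action on beta-adrenergic receptors and in metabolism, stood at 240.7, 218.2, 183.7, 180.0 and 200.6 CPM in replicates 1 to 5 at 3 h. At 24 h it was 139, 131, 123, 132 and 157 CPM, and at 48 h 95.1, 119, 118, 125 and 125 CPM. Every control library at 24 and 48 h was below every one at 3 h. The log2 difference was −0.60 ± 0.078 (SE) from 3 to 24 h (adjusted p = 8.36e-06) and −0.82 ± 0.089 from 3 to 48 h (adjusted p = 9.71e-07).

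Arrdc4 in the control was 54.5, 52.7, 53.7, 50.3 and 56.2 CPM at 3 h, a mean of 53.4 ± 2.2 (SD, n = 5). At 24 h it was 54.3, 49.1, 37.5, 39.4 and 44 CPM, and at 48 h 39.4, 38.8, 48, 44.2 and 39.4 CPM. Replicate 1 at 24 h reached the 3 h range, and all 48 h libraries lay below it. Arrdc4 was lower at 24 h by a log2 difference of −0.27 ± 0.082 (adjusted p = 0.0128) and at 48 h by −0.36 ± 0.071 (adjusted p = 0.000458). The same control libraries were part of the contrast that chose Arrdc4, a limit on these adjusted p-values.

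Txnip in the control was 163, 171, 163, 146 and 172 CPM at 3 h, 218, 185, 149, 151 and 152 CPM at 24 h, and 202, 184, 227, 189 and 201 CPM at 48 h. Its 24 h values spread more widely than those at either other time, with replicates 1 and 2 high. All 48 h libraries were above all 3 h libraries, and the log2 difference was 0.29 ± 0.065 (adjusted p = 0.00142). From 24 to 48 h the difference was 0.23 ± 0.099 and was not called (adjusted p = 0.138), but it was called without control 24 h replicate 1, at 0.33 (adjusted p = 0.0146).

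Mlxip rose from 70.4 ± 2.93 to 81.7 ± 3.63 CPM between 3 and 24 h (log2 difference 0.20 ± 0.051, adjusted p = 0.00399), with no overlap between the groups. At 48 h it was 73.6 ± 8.85 CPM, where replicate 1 stood at 57.8 and the others between 76.5 and 78.9. Mlxipl, at 3.59 to 4.33 CPM on average, Arrdc1, at 12.8 to 14.9 CPM, and Arrdc2, at 11.2 to 12 CPM, had no called difference between control times. In all, 3 of the 7 genes were called from 3 to 24 h, 0 from 24 to 48 h and 3 from 3 to 48 h. Of all genes tested, 40.2%, 16% and 49.3% were called in these 3 comparisons, so the share among the members was near the share of all genes in the first and the last of them. Groups did not overlap in 27.6%, 12.8% and 36% of all genes. Over the same time markers of other cell types changed widely. From 3 to 24 h, 8 of 10 macrophage markers rose and 1 fell, 10 of 10 endothelial markers fell and 8 of 12 erythroid markers fell, and the part of these cells in the changes of the members was not tested.

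The time course within BPS, in a fit of all 45 libraries, gave 3 members called from 3 to 24 h at 10 µM, beside 39.8% of all genes. At 50 µM, with Arrdc4 described only, Arrdc3, Mlxip and Arrdc1 were called, beside 41.6% of all genes. Groups did not overlap for Arrdc3, Arrdc4 and Mlxip at either dose, as in 26.9% and 27.8% of all genes. Arrdc3 was lower in both doses by a log2 difference of −0.60 ± 0.086 (adjusted p = 1.49e-07 at 10 µM and 1.68e-07 at 50 µM). Mlxip was higher in both, by 0.23 ± 0.060 (adjusted p = 0.00169) and 0.24 ± 0.059 (adjusted p = 0.00102). Arrdc4 was lower by −0.28 ± 0.085 at 10 µM (adjusted p = 0.00613), and at 50 µM by −0.36 ± 0.086, given with no test. Arrdc1 was called at 50 µM only, at −0.32 ± 0.104 (adjusted p = 0.0115), and was not called without replicate 3 of every group (−0.21, adjusted p = 0.146).

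From 24 to 48 h, 2 members were called at 10 µM (22.6% of all genes) and 2 at 50 µM (24% of all genes). Txnip rose at both doses, by a log2 difference of 0.34 ± 0.094 at 10 µM (adjusted p = 0.00535) and 0.30 ± 0.095 at 50 µM (adjusted p = 0.0152). Leaving out replicate 3 or 4 of every group ended the call at 10 µM (adjusted p = 0.0707 and 0.0673), and leaving out replicate 5 ended that at 50 µM (0.136). Mlxipl fell at 10 µM, by −0.51 ± 0.173 (adjusted p = 0.027), and was not called without replicate 1, 2 or 5 (adjusted p = 0.0887, 0.16 and 0.131). Arrdc1 rose at 50 µM by 0.56 ± 0.104 (adjusted p = 4.24e-05), from a mean of 9.89 to 14.6 CPM with no overlap, as in 18.6% of all genes.

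The second comparison set 50 µM BPS against DMSO at each time. Arrdc4 and Txnip were lower and Arrdc3 was higher at 50 µM in all 5 pairs of libraries with the same replicate number at 3, 24 and 48 h. No share of all genes is given for this pattern, so nothing particular to the members is read from it. The same numbers went together across genes at 3 and 24 h (correlation of the deviations from the group means 0.12 to 0.31 and 0.12 to 0.32) but not in every pair at 48 h. For 3 and 24 h a fit with the number as a block is therefore given where it changed a call. Libraries with different numbers correlated from −0.28 to 0.35 at 3 h and from −0.20 to 0.17 at 24 h. At 3 h the pairing is thus the weaker, and calls made there only with the block rest on it. Among all genes tested, 0.0538% were called at 3 h, 0.375% at 24 h and 1% at 48 h, and with the block 1.53% at 3 h and 5.75% at 24 h. The share of all genes with every 50 µM library below every control library was 1.03%, 1.42% and 1.68% at the 3 times. Nothing is read from these shares for Arrdc4, which was chosen on this contrast.

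Arrdc4 at 50 µM was 43.7, 41.1, 45.2, 40.9 and 44.4 CPM at 3 h, beside control values from 50.3 to 56.2. It was 36.3, 36.3, 33.1, 30.6 and 32.5 CPM at 24 h, beside 37.5 to 54.3, and 26.5, 37.6, 33.1, 33 and 36.2 CPM at 48 h, beside 38.8 to 48. Every 50 µM library lay below every control library of its time. The margin was narrow at 24 and 48 h, where the highest 50 µM library stood just below the lowest control. The log2 difference was −0.31 ± 0.054 at 3 h, −0.40 ± 0.091 at 24 h and −0.34 ± 0.091 at 48 h. The change of the group mean was −19.4%, −24.8% and −20.7%.

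Txnip at 50 µM was 142, 150, 121, 123 and 132 CPM at 3 h, 125, 134, 110, 119 and 117 CPM at 24 h, and 132, 169, 138, 144 and 167 CPM at 48 h. The groups overlapped at 3 h, where 50 µM replicate 2 exceeded control replicate 4, and did not overlap at 24 or 48 h. Txnip fell at 48 h, by a log2 difference of −0.42 ± 0.075 (adjusted p = 0.0119), and fell short of the threshold when replicate 3 (adjusted p = 0.0517) or replicate 4 (0.0526) of 50 µM was left out. At 3 h the difference was −0.29 ± 0.059, which was not called without the block (adjusted p = 0.0712) and was called with it (8.79e-05). At 24 h it was −0.49 ± 0.103, again not called without the block (adjusted p = 0.0644) and called with it (0.000405).

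**Figure D1:**
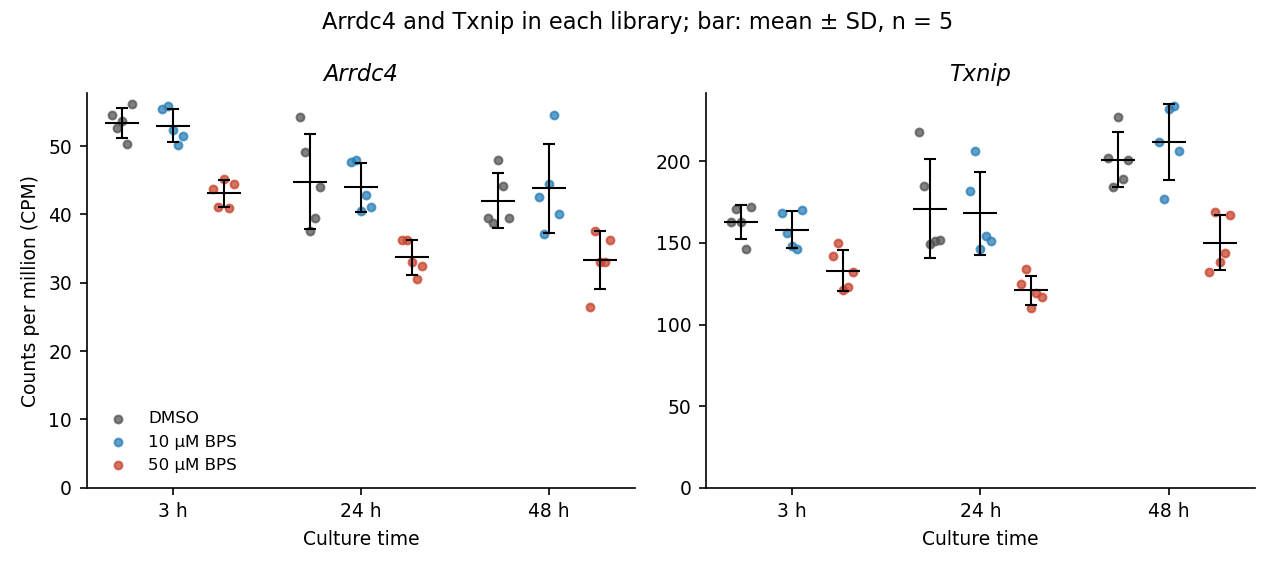
CPM of Arrdc4 (left) and Txnip (right) in each of the 45 libraries by culture time, with points for libraries in replicate order, horizontal marks for the group mean and bars for the SD (n = 5). At each time the 50 µM libraries of Arrdc4 all lie below the control libraries, and the Txnip mean at 50 µM is 133, 121 and 150 CPM against 163, 171 and 201 CPM in DMSO.

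Arrdc1, which directs ubiquitin ligases to budding at the plasma membrane and the release of small vesicles, had its largest difference from the control at 24 h. It was 16, 13.8, 14.8, 14.6 and 11.4 CPM in the 24 h control and 11.7, 10.9, 9.1, 8.69 and 9.03 CPM at 50 µM. The ranges touched only through 50 µM replicate 1 and control replicate 5. The log2 difference was −0.50 ± 0.113, not called without the block (adjusted p = 0.0565) and called with it (0.00268). At 3 h it was −0.06 ± 0.104 and at 48 h −0.03 ± 0.094. The change of the 50 µM response between 3 and 24 h was −0.44 ± 0.147 and was not called as an interaction (adjusted p = 0.587).

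Arrdc3 at 50 µM was 259, 287, 210, 223 and 234 CPM at 3 h, 157, 163, 146, 149 and 192 CPM at 24 h, and 163, 144, 126, 142 and 128 CPM at 48 h. The groups overlapped at 3 and 24 h, and at 48 h every 50 µM library was above every control library, as in 1.88% of all genes. The log2 difference was 0.25 ± 0.090 at 3 h, 0.25 ± 0.077 at 24 h and 0.27 ± 0.082 at 48 h, in the direction opposite to that of Txnip. None was called without the block (adjusted p = 0.512, 0.177 and 0.15). With the block Arrdc3 was called at 3 h (adjusted p = 0.00055) and at 24 h (0.000267).

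Arrdc2 had log2 differences of 0.22 ± 0.112, 0.05 ± 0.149 and 0.27 ± 0.113 at 3, 24 and 48 h (adjusted p = 0.661, 0.927 and 0.313). At 48 h it was 14.5 ± 0.99 CPM at 50 µM and 12 ± 1.99 CPM in the control, with overlapping groups. The transcripts of the transcription factors had no called difference. Mlxip differed by 0.02 ± 0.051, 0.06 ± 0.056 and 0.14 ± 0.077, and Mlxipl, at 3.67 to 5.14 CPM on average at 50 µM, by 0.26 ± 0.152, 0.22 ± 0.174 and 0.03 ± 0.171. The adjusted p-values were 0.492 to 0.971. The approximate 95% intervals ran from −0.08 to 0.29 for Mlxip and from −0.31 to 0.56 for Mlxipl. They use a normal multiplier on the SE and are somewhat narrow for so few libraries. The low counts of Mlxipl left its difference imprecise. Mlx had differences from −0.13 to −0.05, which were not called, but its reads are uncertain because Psmc3ip overlaps it on the other strand with 13294 reads against 22102, and strand was not kept as far as the labels say.

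**Figure D2:**
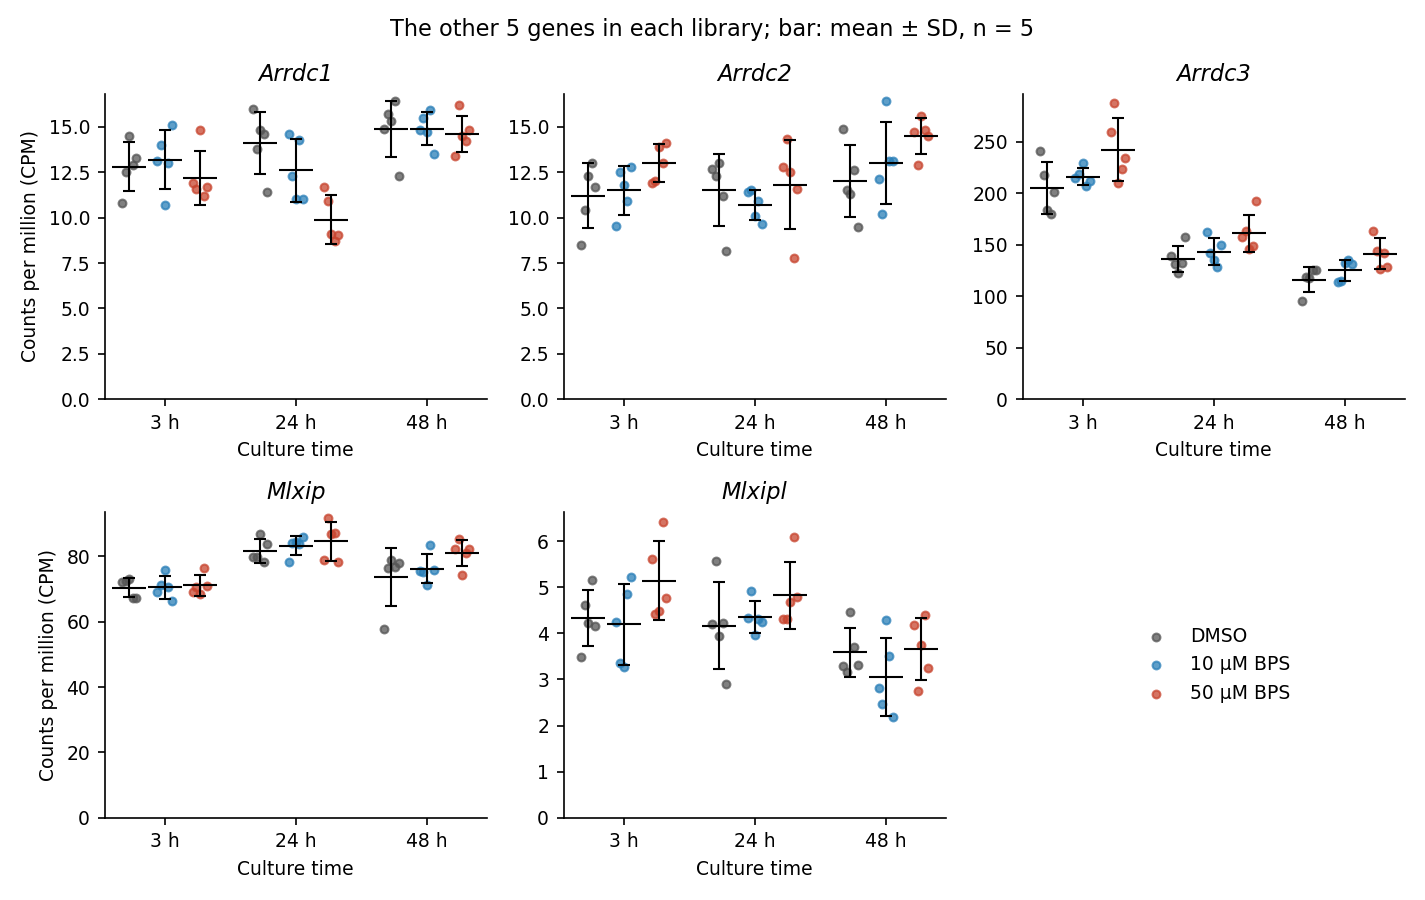
CPM of Arrdc1, Arrdc2, Arrdc3, Mlxip and Mlxipl in each library by culture time, with points for libraries, horizontal marks for the group mean and bars for the SD (n = 5). Arrdc3 falls with time at every dose, and Arrdc1 at 24 h stands at 9.89 CPM at 50 µM against 14.1 CPM in DMSO.

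The third comparison set 10 µM BPS against DMSO. At 10 µM, 0 of the 7 genes and 0% of all genes were called at 3, 24 and 48 h in the edgeR test. DESeq2 also called 0 genes. An unadjusted p below 0.05 in edgeR was found for 329 of 16654, 494 of 16529 and 438 of 16725 genes tested. These counts are below the 0.05 share that no difference would give. With the block at 24 h, where the numbers pair the libraries, 1311 genes had such a p and 0 were called. Arrdc4 was 55.4, 55.8, 52.4, 50.2 and 51.5 CPM at 3 h, 47.6, 48, 40.5, 42.8 and 41.1 CPM at 24 h, and 42.6, 37.2, 44.5, 54.5 and 40.1 CPM at 48 h. Its groups overlapped with the control at each time, and the log2 difference was −0.01 ± 0.054, −0.03 ± 0.090 and 0.06 ± 0.098. Txnip differed by −0.05 ± 0.055, −0.03 ± 0.134 and 0.08 ± 0.079. The lower bounds of the approximate 95% intervals were −0.12, −0.21 and −0.13 for Arrdc4 and −0.16, −0.29 and −0.07 for Txnip.

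Set directly against 10 µM, 50 µM gave lower Txnip at 24 h, by a log2 difference of −0.47 ± 0.095 (adjusted p = 0.0316), and at 48 h, by −0.51 ± 0.094 (adjusted p = 0.00224), with no overlap at either time. The share of all genes called was 0.0543% and 0.738%, and groups did not overlap in 1.21% and 2.84% of all genes, and in 0.922% at 3 h. The call at 24 h was not made in a fit of the 10 libraries alone (adjusted p = 0.121) or with any 1 replicate number left out (0.104 to 0.213), and that at 48 h was lost without replicate 4 (0.0606). At 3 h Txnip differed by −0.23 ± 0.094 and was not called (adjusted p = 1), as in all but 0.00543% of genes. Arrdc4 stood lower at 50 than at 10 µM by −0.30 ± 0.085, −0.38 ± 0.086 and −0.40 ± 0.086 at the 3 times, with groups that overlapped at 48 h only. These tests reuse the 50 µM libraries of the comparison with DMSO and are not a second sample of them.

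**Figure D3:**
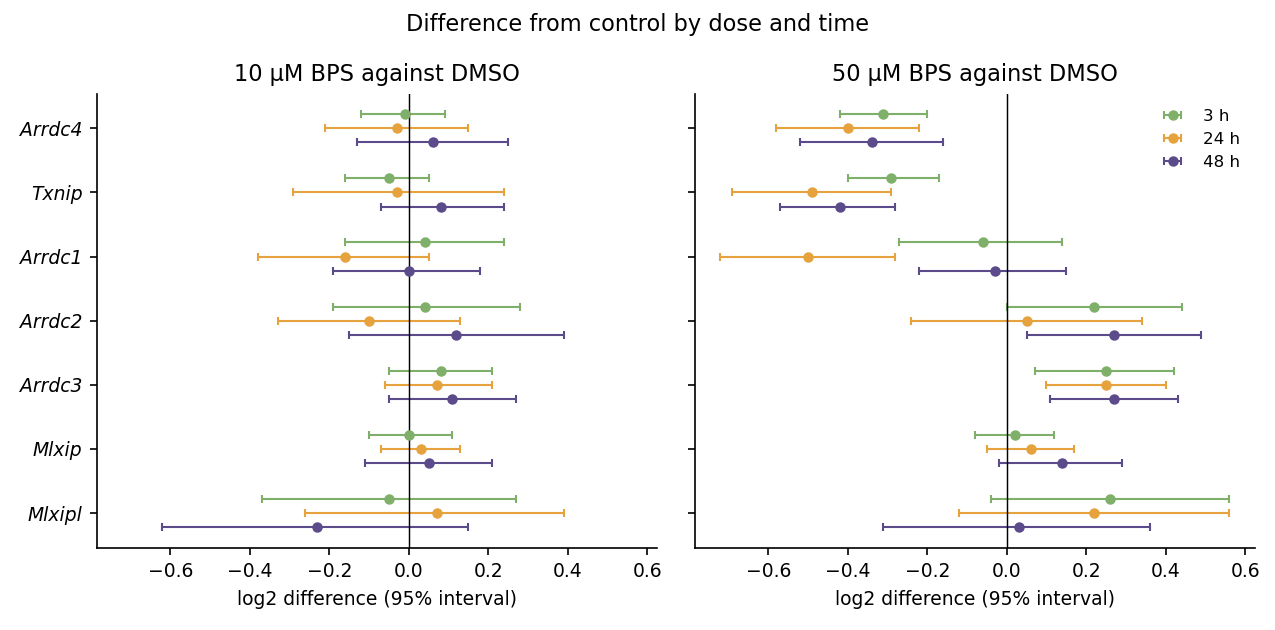
Log2 difference from DMSO with its approximate 95% interval for the 7 genes at 10 µM (left) and 50 µM (right), with a point per culture time. At 10 µM all 21 intervals include 0, and at 50 µM the values of Arrdc4 and Txnip lie between −0.49 and −0.29 and those of Arrdc3 between 0.25 and 0.27.

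Whether the 50 µM response changed with time was tested as an interaction in the fit of all 45 libraries. For Txnip the response at 24 h differed from that at 3 h by −0.20 (95% interval −0.46 to 0.06, adjusted p = 0.802), and that at 48 h from that at 3 h by −0.13 (−0.40 to 0.13, adjusted p = 0.857). For Arrdc3 the same differences were 0.00 ± 0.121 and 0.02 ± 0.121. In the 3 interactions 0 of the 6 genes other than Arrdc4 were called, beside 0%, 0.0922% and 0% of all genes. For Arrdc4 the response differed by −0.09 ± 0.121 and −0.03 ± 0.121 from that at 3 h.

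Within groups, with the group means removed, Arrdc4 and Txnip were correlated. Over the 45 libraries r was 0.75 and rho 0.73 in log2 CPM less the group mean. These values are given with no p, because libraries with the same replicate number share part of their deviation at 24 h and are not independent. Without the 2 libraries farthest from the median of Arrdc4, r was 0.72. By time, r was 0.20 at 3 h, 0.88 at 24 h and 0.82 at 48 h, with 15 libraries each. Arrdc1 had r = 0.39 and rho = 0.41 with Arrdc4, and r = 0.34 without the 2 farthest libraries. Arrdc2, Arrdc3, Mlxip and Mlxipl had r from 0.07 to 0.21.

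**Figure D4:**
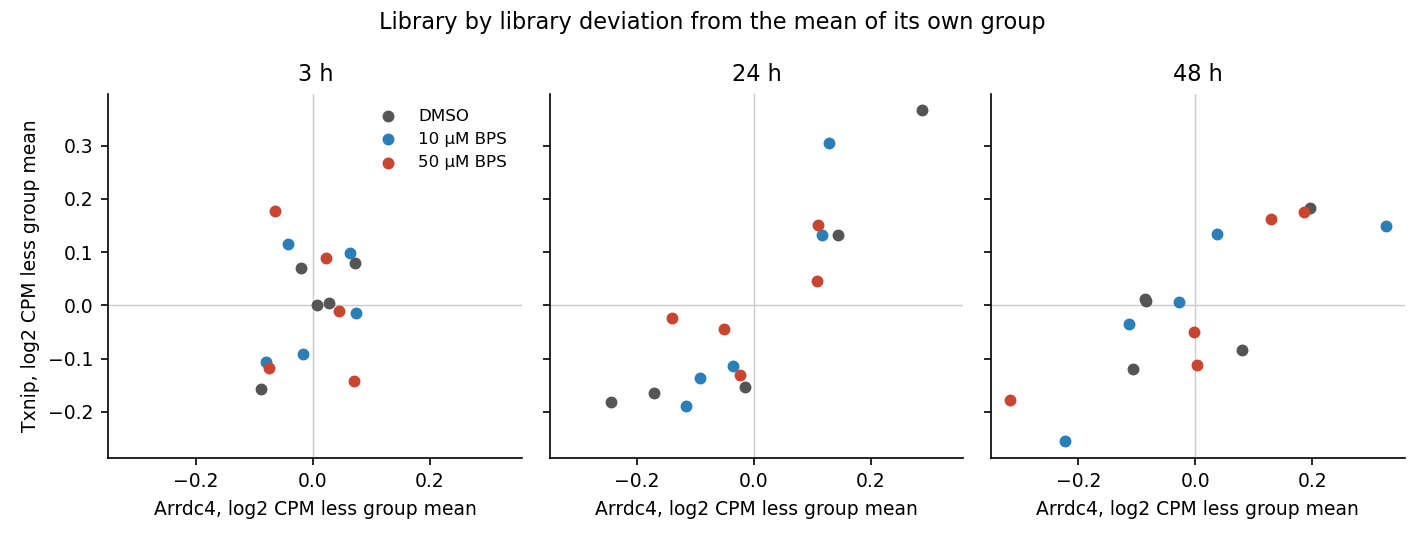
Log2 CPM of Arrdc4 (x axis) and Txnip (y axis) in each library less the mean of its own group, in a panel per culture time and coloured by dose. The points follow a rising line at 24 and 48 h (r = 0.88 and 0.82) and do not at 3 h (r = 0.20).

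At 24 h, replicates 1 and 2 held the 2 highest Arrdc4 and Txnip values in each of the 3 dose groups. Pfkfb3, an enzyme that drives glycolysis, was 67.3, 47.7, 18.7, 21.3 and 33.9 CPM in the 24 h control and 46.2, 64.2, 19.9, 19 and 17.7 CPM at 10 µM, with the same 2 replicates highest. The glucose transporter gene Slc2a1, named after its values were seen, was 172, 124, 51.5, 53.2 and 76 CPM in the same control libraries. At 50 µM Pfkfb3 was 20.1, 35.6, 18.9, 19.2 and 21 CPM, where replicate 2 was highest and replicate 1 was below replicate 5. At 48 h Pfkfb3, Slc2a1, Arrdc4 and Txnip were each highest in control replicate 3 (48.8, 138, 48 and 227 CPM). The same held for 50 µM replicate 2 (31.5, 134, 37.6 and 169 CPM). At 10 µM and 48 h Pfkfb3 and Slc2a1 were highest in replicate 3, and Arrdc4 and Txnip in replicate 4. The highest 48 h control value of Ldha, lactate dehydrogenase A, was 591 CPM in replicate 1, where Arrdc4 was 39.4 CPM. High values thus coincided in some libraries and not in every one. The part of this variation in the 50 µM differences at 24 and 48 h was not tested.

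Among 12068 genes with a mean of at least 5 CPM, Txnip was the gene most like Arrdc4 once the mean of each culture time was removed (r = 0.906 over 45 libraries), and Arrdc4 the one most like Txnip. This measure holds the dose difference that chose Arrdc4. The next for Arrdc4 were Pld2 (0.763), Stab1 (0.742), Hist1h1c (0.735) and Pfkfb3 (0.727), and for Txnip Hist1h1c (0.806), Pld2 (0.804), Stab1 (0.789) and Nxph4 (0.782). Stab1, a scavenger receptor of macrophages and sinusoidal endothelium, was 46.7 ± 3.35 CPM in the 48 h control and 30.7 ± 2.31 CPM at 50 µM. Pld2, which encodes a phospholipase D, was 25.7 ± 2.05 and 19.2 ± 0.637 CPM in the same groups.

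Over the 9 group means r between the 2 genes was 0.367, and their control levels went in opposite directions from 3 to 48 h. The closest to Arrdc4 by this measure were Zbtb2 (0.965), Stag3 (0.953), Xpnpep2 (0.951), Cenpt (0.948) and Atg2a (0.942). Those closest to Txnip were Cyth4 (0.959), 9130221H12Rik (0.957), Klf10 (0.951), Tyw5 (0.950) and Birc3 (0.948). These are correlations of 9 points that share a few libraries each, given with no test.

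Klf10, a zinc-finger transcription factor gene and itself a known ChREBP target, was the one listed target called lower. It fell at 48 h from 41.8 ± 2.54 to 32.7 ± 3.69 CPM at 50 µM (log2 difference −0.36 ± 0.077, adjusted p = 0.0399). At 3 and 24 h the differences were −0.24 ± 0.070 and −0.30 ± 0.084 and were not called without the block (adjusted p = 0.321 and 0.124), but were with it (0.0423 and 0.00878). At 10 µM its level was 32.5 ± 1.44, 33.6 ± 3.45 and 43.4 ± 4.49 CPM at 3, 24 and 48 h. The control was 36.6 ± 2, 37.2 ± 2.22 and 41.8 ± 2.54 CPM at these times.

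The listed targets called higher were 1 gene at 24 h and 1 at 48 h, both of fatty acid synthesis. Fasn, fatty acid synthase, was higher at 24 h at 399 ± 27.5 against 337 ± 17.8 CPM (log2 difference 0.25 ± 0.054, adjusted p = 0.0498), and Acaca, acetyl-CoA carboxylase, at 48 h at 138 ± 5.78 against 113 ± 6.75 CPM (0.29 ± 0.054, adjusted p = 0.0176). With the block 3 other listed targets were also higher at 24 h. Acaca was 145 ± 7.56 against 123 ± 10.2 CPM (adjusted p = 0.000452), the elongase gene Elovl6 was 113 ± 6.53 against 97 ± 10.2 CPM (0.00168), and Acly, ATP citrate lyase, was 261 ± 13.5 against 234 ± 11.1 CPM (0.00725). Pfkfb3 had the lowest value, −0.71 ± 0.389 at 24 h, and was not called (adjusted p = 0.514). Of the 14 other known ChREBP or MondoA targets that were tested, 0 were called at 3 h, 1 higher at 24 h, and 1 higher and 1 lower at 48 h. With the block the counts were 1 lower at 3 h, and 4 higher and 1 lower at 24 h. Of all genes, 0.0538%, 0.375% and 1% were called at the 3 times, and 1.53% and 5.75% with the block at 3 and 24 h. The median log2 difference of the 14 was 0.05, −0.07 and 0.11 at the 3 times, beside 0.004, 0.003 and −0.004 over all genes.

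**Figure D5:**
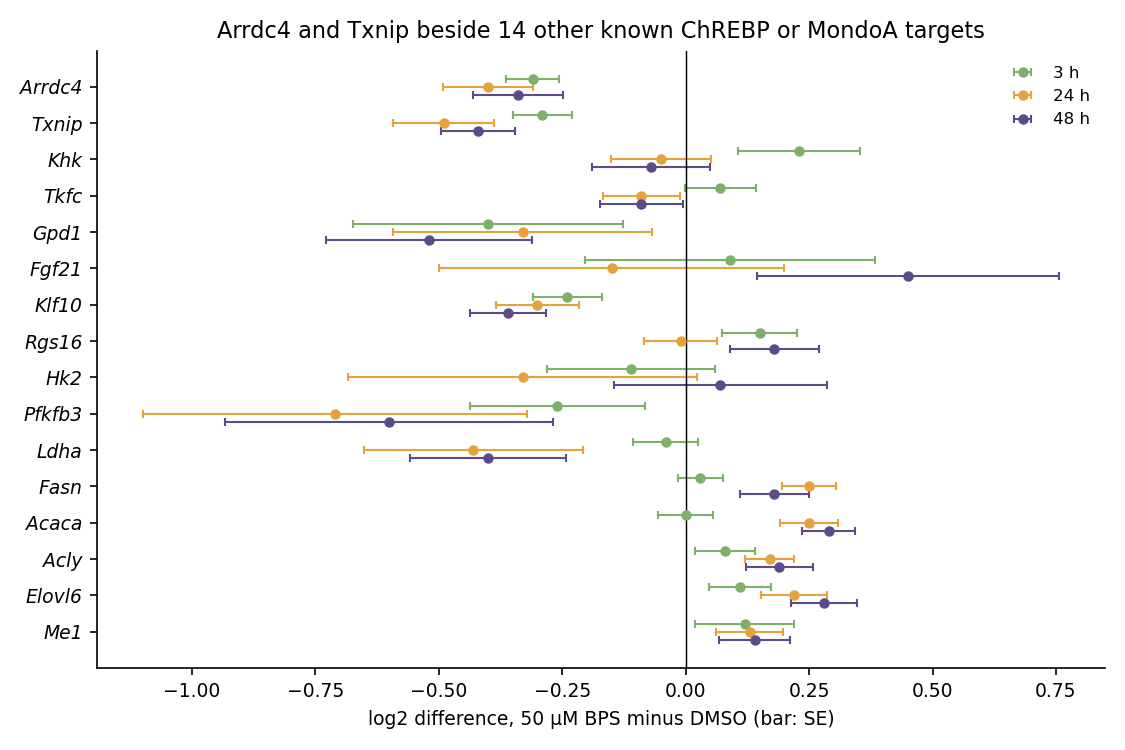
Log2 difference of 50 µM BPS from DMSO with its SE for Arrdc4, Txnip and 14 other known ChREBP or MondoA targets, with a point per culture time. Arrdc4, Txnip, Klf10, Pfkfb3, Gpd1 and Ldha are below 0 at each time, and Fasn, Acaca, Acly, Elovl6 and Me1 are above 0 at 24 and 48 h.

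In the fit without the block, 0.0538%, 0.375% and 1% of all genes were called at 50 µM against DMSO at 3, 24 and 48 h. Lists of 6 to 13 genes can thus hold 0 calls without differing from all genes. The other lists around the members gave 0 calls in this fit. This held at each time for 13 genes of the thioredoxin system, 9 NEDD4-family ligases, 10 ESCRT genes used by ARRDC1 vesicles, 12 FOXO and glucocorticoid targets, 11 MLX and MAX network partners, 6 other arrestin-fold genes, and the 9 or 10 glucose transporters tested. Differences were small in the thioredoxin system, between −0.20 (Txnrd3) and 0.15 (Prdx6), and among the ESCRT genes, between −0.20 (Vps37a) and 0.10 (Mvb12a). With the block the thioredoxin, ESCRT, arrestin-fold and glucose transporter genes again had 0 calls at 3 and 24 h. Of all genes, 1.53% and 5.75% were called with it at these times. Calls with the block were Ddit4, higher at 3 h (adjusted p = 0.00927), and at 24 h Itch, a ligase that alpha-arrestins recruit, higher at 117 ± 5.37 against 104 ± 5.82 CPM (0.0185), Cited2 and Mxd4, lower (0.00381 and 0.0084), and Mga and Mycn, higher (0.0312 and 0.0407). Differences were wider in the glucose transporters, from −0.48 (Slc2a1, 24 h) to 0.43 (Slc2a9, 3 h), and in the FOXO and glucocorticoid targets, from −0.75 (Zbtb16, 24 h) to 0.39 (Pdk4, 48 h). The transporter genes gave 1 call against 10 µM, at 48 h, where the insulin-responsive transporter gene Slc2a4 was 44.2 ± 3.18 CPM at 50 µM and 34.9 ± 2.99 CPM at 10 µM (log2 difference 0.33 ± 0.066, adjusted p = 0.00372).

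With culture time in the control, counts of listed genes are given beside the share of all genes called, and no list was tested as a whole. From 3 to 48 h, where 49.3% of all genes were called, 8 of 12 FOXO and glucocorticoid targets fell and 2 rose, with a median log2 difference of −0.40 beside −0.014 over all genes. Ccng2 fell from 146 ± 9.83 to 82.4 ± 10.5 CPM (adjusted p = 1.77e-07), Fkbp5 from 66.5 ± 4.09 to 47.8 ± 3.88 CPM (1.67e-05) and Irs2 from 103 ± 6.93 to 72.6 ± 12.8 CPM (0.000326). Of 13 genes of the thioredoxin system 4 rose and 3 fell, among them the thioredoxin reductase gene Txnrd1, from 127 ± 10.9 to 94.4 ± 6.79 CPM (adjusted p = 4.37e-05).

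From 3 to 24 h, where 40.2% of all genes were called, 4 of the 9 NEDD4-family ligase genes, the partners of alpha-arrestins, rose and 0 fell, a share near that of all genes. Wwp2 rose from 688 ± 38 to 1030 ± 34.8 CPM (adjusted p = 9.82e-09). Smurf1 rose from 79.4 ± 4.81 to 104 ± 3.33 CPM (6.49e-06). Of 10 glucose transporters 3 fell and 1 rose over the same interval, with Slc2a4 at 40.7 ± 2.55 and then 33.5 ± 2.3 CPM (adjusted p = 0.00139). Among the 14 ChREBP or MondoA targets 3 rose and 0 fell, led by Me1, malic enzyme, from 21.3 ± 3.06 to 34.7 ± 2.14 CPM (adjusted p = 2.66e-06).

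Some markers of other cell types were lower at 50 µM beside Txnip and Arrdc4. The summed level of 10 macrophage markers was 131 to 179 CPM in the 24 h control and 108 to 135 CPM at 50 µM, and 219 to 306 and 150 to 229 CPM at 48 h. Of these 10 markers 1 was lower at 24 h and 4 at 48 h, including Csf1r at 16.4 ± 2.94 against 25.9 ± 1.18 CPM (adjusted p = 0.00501), and 0 were at 0 in all libraries. With the block 4 were lower at 24 h. The shares of all genes called were 0.375% at 24 h and 1% at 48 h, and 5.75% with the block at 24 h. The summed level of 10 endothelial markers at 48 h was 266.9 to 380.5 CPM in the control and 241.4 to 299.2 CPM at 50 µM, with 1 called lower. With the block 1 was lower at 24 h (Egfl7, adjusted p = 0.0155). At 3 h, 12 erythroid markers summed to 2310 to 2740 CPM in the control and 1850 to 2320 CPM at 50 µM, with 0 called without the block and 2 lower with it, and at 24 h 1 was higher with the block (Slc4a1, log2 difference 0.54, adjusted p = 0.0446). Of the limb markers Msx1 was higher at 3 h with the block (adjusted p = 0.0065). Skeletal muscle and Schwann and neural crest markers had 0 called in either fit at 3 and 24 h. Of 10 epidermal markers 0 were called without the block, and with it 1 was lower at 3 h and 2 at 24 h. In bulk libraries fewer cells of a type and less RNA per cell cannot be told apart. The part of these markers in the differences of the 7 genes was not tested.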

How the data were processed

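The authors deposited 9 tables, 1 per comparison of 10 libraries, with raw read counts and gene length per gene, per the file headers. Build mm10 and the tools CASAVA 1.8, STAR 2.5, DESeq2 (version 2) and HTSeq 0.6.1 are listed in the submitters' processing notes, without role or order. The gene length in bases is another deposited value and was used only for CPM per kilobase. Tables were joined by gene identifier, and of 1319925 control counts present more than once 0 differed. Genes missing from a table had at most 1 read there where known and were set to 0. A count of 3 reads lies between 0.13 and 0.197 CPM.

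Genes were tested in edgeR 4.0.16 (R 4.3.3) by quasi-likelihood, two-sided, with TMM, filterByExpr and robust dispersion, adjusted by Benjamini-Hochberg. All 7 genes passed the filter in each fit. Comparisons with DMSO and between control times used their 10 libraries, the others 1 fit of all 45. The alternatives were median-of-ratios scaling, no filter, DESeq2 1.42.0, the other set of libraries, a replicate block and leaving out each replicate. The fits were tested on simulated data. Log2 CPM used a prior count of 2.

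Replicate numbers come from the sample titles. They pair libraries (each same-number correlation over 0.1) for 50 µM against DMSO at 3 and 24 h, 10 µM against DMSO at 24 h and 50 against 10 µM at 24 h. The named genes are the 7, Mlx, up to 3 called genes per list and comparison by smallest adjusted p, and the 5 most like Arrdc4 and Txnip by correlation. Genes called only with the block, those at the ends of a list's range, Slc2a1 and Ldha were named after their values were seen. The correlations within groups were also chosen then. The members and lists were chosen with earlier results of these data known. The authors' fold changes, p-values and FPKM were not used here.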

Additional observations from a re-analysis of the deposited data

Results flagged for a closer look

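In 5 of 63 groups of 5 libraries, 1 library stood far from the others by Dixon's criterion, where chance gives about 1 in 20. Arrdc1 at 50 µM and 3 h was 14.8 CPM in replicate 3 and 11.2 to 11.9 in the others. Mlxip in the 48 h control was 57.8 CPM in replicate 1 and 76.5 to 78.9 in the others, and Arrdc3 in the same library was 95.1 CPM beside 118 to 125. Mlxip at 10 µM and 24 h was 78.3 CPM in replicate 1 and 83.9 to 85.9 in the others. Mlxipl at 50 µM and 24 h was 6.08 CPM in replicate 4 and 4.31 to 4.78 in the others. Without control 48 h replicate 1, the Arrdc3 difference of 50 µM from DMSO at 48 h was 0.20 in place of 0.27.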

How the results depend on the processing

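Median-of-ratios scaling changed no call among the 7 genes. Arrdc4 is left out of all counts that set 50 µM against another dose, and of the calls from 3 to 24 h at 50 µM. Numbers of the other 6 genes called at 50 µM against DMSO (0, 0 and 1 at 3, 24 and 48 h) were 2, 2 and 1 with no filter, 1, 2 and 1 in DESeq2, 2, 3 and 0 with the replicate block, 0, 2 and 1 in the fit of all 45 libraries, and 0 to 1, 0 to 3 and 0 to 1 with 1 replicate left out. From 24 to 48 h in the control 0 were called, 1 with the replicate block (Arrdc3, −0.24, adjusted p = 0.0217) and 0 to 1 with 1 replicate left out. For 50 against 10 µM the 1 call at 24 h became 0 in the fit of the libraries compared, 0 with no filter, 1 in DESeq2 and 0 to 0 with a replicate left out. The 1 call at 48 h became 0 to 1 with a replicate left out. From 24 to 48 h, 2 calls became 1 to 1 at 10 µM and 1 to 3 at 50 µM with a replicate left out. At 48 h, where the numbers do not pair the libraries, the block gave Txnip −0.43 (adjusted p = 0.0514). Among the tested genes of the 7 the block changed no other call than these and those in the results. Where a control or dose group lost a library the fit still held at least 4 per group.

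Values that turned sign did so with 1 replicate left out and none was called. Against DMSO at 50 µM they were Mlxip at 3 h (−0.01 to 0.03), Arrdc2 at 24 h (−0.05 to 0.16), and Arrdc1 (−0.09 to 0.01) and Mlxipl (−0.05 to 0.12) at 48 h. At 10 µM they were Arrdc4 at 3 h (−0.03 to 0.01), 24 h (−0.09 to 0.05) and 48 h (−0.04 to 0.11), and Txnip at 24 h (−0.11 to 0.07). The others were Txnip from 3 to 24 h in the control (−0.05 to 0.10) and the time change of the 50 µM response of Arrdc4 (−0.11 to 0.05 for 48 against 3 h and −0.01 to 0.18 for 48 against 24 h) and Arrdc1 (−0.06 to 0.10 for 48 against 3 h). The cause of these changes was not tested. Depth limits Mlxipl most, at 2.18 to 6.42 CPM.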
